A study of Homo sapiens with 12 samples.

Results

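Ribosome footprints on 32 genes that supply amino acids or are known targets of the transcription factor ATF4 were followed in human lymphoblastoid cell lines after a 30 min exposure to sodium arsenite. The genes were taken by symbol from a fixed list of 37 ATF4 targets, amino acid transporters and enzymes of serine, proline, asparagine and one-carbon metabolism, and 32 of the 37 were among the 12357 genes of the count table. ASNS, GPT2, CBS, DDIT3 and NUPR1 were not analysed here. The cells were 3 Epstein-Barr virus transformed B-cell lines of wild-type genotype, GM18505, GM19193 and GM19204, and each was grown as 1 control culture given water and 1 culture given sodium arsenite. Each culture gave a pair of libraries, T and U, of which 1 had an added CRISPR step against ribosomal RNA. The counts of T and U were summed, which left 6 samples with n = 3 lines per condition. The replicates are therefore different lines. The gene tests have the line as a block and estimate the spread between lines partly from other genes. A p-value therefore does not rest on the 3 lines of 1 gene alone. A line is 1 transformed culture, so the values describe these 3 lines in culture.

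ATF4 is a basic leucine zipper transcription factor made from an mRNA with upstream reading frames. When a kinase phosphorylates the initiation factor eIF2 on its alpha subunit, most mRNAs are translated less while ATF4 is translated more. ATF4 then binds composite C/EBP-ATF elements, usually paired with a C/EBP protein, and switches on genes for amino acid import and synthesis, for folate-linked one-carbon transfer, and for feedback such as TRIB3. Arsenite is a standard oxidative trigger of this response. A ribosome footprint is the stretch of mRNA that a ribosome shields from nuclease, so a footprint count follows both the amount of an mRNA and the number of ribosomes on it, and these counts cannot tell the one from the other. The synthetic RNA that serves below as a reference was dosed by the amount of digested RNA from ribosome-sized complexes, not by cells, so a change in that RNA per cell under arsenite would not be read.

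Gene counts summed to between 5114266 and 6467049 per control sample and between 1326231 and 2448947 per arsenite sample. The 32 genes together took 0.372% of the counts in control GM18505, 0.350% in control GM19193 and 0.349% in control GM19204. In the arsenite cultures of the same lines they took 0.234%, 0.242% and 0.217%, so their share was lower in every line. All 9 B-cell markers and all 5 markers of virus-activated B cells were in the table, while of 18 markers of T, myeloid, erythroid, epithelial and fibroblast cells 4 were, and no T-cell or erythroid marker among them. The 4 summed to between 11.0 and 31.5 CPM (counts scaled to library size) in the control samples and between 20.4 and 124.5 CPM in the arsenite samples. The fibroblast collagen gene COL1A2 went from a mean of 2.68 to 36.0 CPM under arsenite, and the part of such transcripts in the values of the 32 genes was not tested. Changes are given on 2 scales. The spike-in scale sets each library by synthetic RNA oligomers added in proportion to the digested RNA of each culture, and so reads footprints per amount of loaded RNA, with a standard error of the scale between 0.07 and 0.16 (log2) per sample. The relative scale (trimmed mean of M values, TMM) sets the bulk of all genes to no change, so that a value says how a gene moved against the others.

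In control cells the densest footprints among the 32 were those of DDIT4, an inhibitor of mTORC1 signalling, and of SHMT2, the mitochondrial serine hydroxymethyltransferase that passes the serine side carbon to folate. Per coding length, DDIT4 stood at 819 ± 205 CPM per 1000 codons and SHMT2 at 809.7 ± 190.4 (SD, n = 3 lines), which overlap. Reads were counted per gene and divided by coding length, so reads outside the coding sequence add to these densities. The glutamine and neutral amino acid carrier SLC38A1 followed at 545 ± 105, ahead of the mitochondrial aspartate transaminase GOT2 at 485 ± 91.2 and of SLC3A2, the heavy chain that brings several SLC7 carriers to the plasma membrane, at 484 ± 62.9 CPM per 1000 codons. These 5 genes ranked above the 90th percentile of all protein-coding genes of the table, and 29 of the 32 ranked above the 50th. The lowest was the lipoprotein receptor gene VLDLR at 13.3 ± 2.60 CPM per 1000 codons, followed by the pseudokinase TRIB3, which binds ATF4 and dampens it, at 46.0 ± 10.7. The steps of serine synthesis were uneven in level, with the committed enzyme PHGDH at 74.3 ± 8.53, the phosphatase PSPH at 98.7 ± 12.7 and the transaminase PSAT1 at 121 ± 49.4 CPM per 1000 codons. Relative to its mean, the spread between lines was widest for CHAC1, which breaks down glutathione, at 76.1 ± 80.7 CPM per 1000 codons.

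Footprints on these genes per amount of loaded RNA were lower under arsenite nearly throughout. On the spike-in scale 31 of the 32 fell and none rose (edgeR quasi-likelihood test, Benjamini-Hochberg adjusted over all genes), where 74.1% of all genes tested fell and 1.12% rose, and 92.3% of protein-coding genes averaging 50 or more counts per sample fell. None of the 32 rose at an unadjusted p under 0.05 either, and DESeq2 gave 0 that rose and 31 that fell. The median log2 fold change of the 32 was -2.19, against -1.78 for all genes and -2.13 for protein-coding genes averaging 50 or more counts per sample. The genes that fell kept between 10.5% and 53.1% of their control footprints. In 29 of the 32 the 3 arsenite samples lay below all 3 control samples, a pattern that 68.7% of all genes and 87.7% of these abundant coding genes showed. CHAC1, CEBPB and STC2 were the 3 exceptions, each with overlapping groups. The one gene that did not pass the test was CEBPB. Without GM18505 the count that fell was 24, and with the total spike-in count as the scale no gene of the table passed, at an unadjusted p under 0.05 either, though the medians were then lower, at -2.66 for the 32 and -2.21 for all genes.

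**Figure D1:**
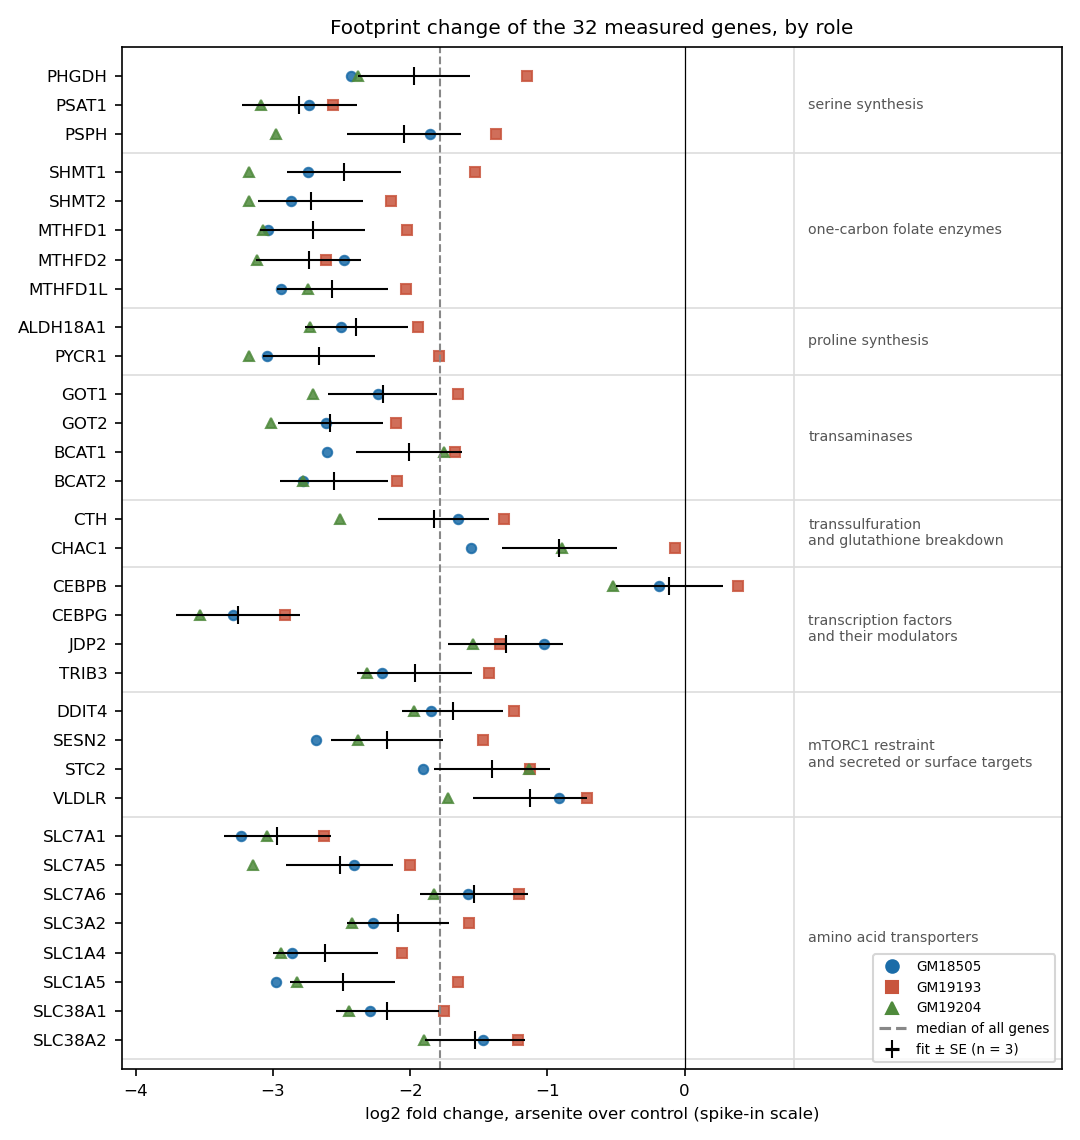
Log2 fold change of footprints (arsenite over control, spike-in scale) for each of the 32 genes, grouped by role; coloured points are the 3 cell lines, black ticks and bars the fitted value ± SE, and the dashed line the median of all genes at -1.78. All points lie left of 0 except CEBPB in GM19193, and in 30 of the 32 genes the point of GM19193 is the one farthest right.

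The size of the fall differed between the lines. GM19193 had the smallest fall, with a median of -1.65 over the 32 genes, against -2.46 in GM18505 and -2.72 in GM19204. The medians of all genes had the same order, at -1.29, -1.88 and -2.22. Each line has 1 culture per condition, so the lines' own falls carry no error of their own. By the paper's design the control and arsenite cultures of a line received different oligomer pools. The paper also reports an effect of the oligomers' manufacturing batch. A line's own fall therefore cannot be told apart from a difference between its pools. Standard errors on this scale were between 0.37 and 0.45 for the 32 genes, against 0.09 to 0.29 on the relative scale. Each standard error was worked back from the F test, as the absolute log2 fold change over the square root of the F statistic. Fold change over standard error is therefore that square root by construction. On the spike-in scale the p-values are close to those of a normal test of this ratio, with almost no allowance for few lines. Their small size therefore does not measure replication over 3 lines. The deepest falls were those of CEBPG, a C/EBP protein that pairs with ATF4, and of SLC7A1, the main carrier of cationic amino acids such as arginine and lysine.

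The 4 genes with the largest falls relative to all genes were CEBPG, SLC7A1, PSAT1 and MTHFD2. Positions are given on GRCh38 and log2 fold changes are fitted values from edgeR. CEBPG (ENSG00000153879.9, chr19:33373685-33382686), the small C/EBP partner of ATF4, had spike-in scaled counts of 117, 134.1 and 144 in the controls of GM18505, GM19193 and GM19204 and of 11.8, 17.6 and 12.2 in their arsenite cultures. Every arsenite value was far below every control value, from raw counts of 10, 17 and 16 under arsenite, so the exact depth of the fall is set by few reads. On the spike-in scale its log2 fold change was -3.26 ± 0.45 (SE, adjusted p = 1.03e-11), and relative to all genes it was -1.45 ± 0.25 (adjusted p = 0.00183). SLC7A1 showed the same separation at a higher level. SLC7A1 (ENSG00000139514.13, chr13:29509414-29595688), the cationic amino acid carrier, had spike-in scaled counts of 723, 711 and 849.6 in the controls of GM18505, GM19193 and GM19204 and of 76.5, 115 and 103 in their arsenite cultures. The groups did not overlap. Its log2 fold change was -2.97 ± 0.39 by the spike-ins (adjusted p = 1.50e-12) and -1.14 ± 0.13 relative to all genes (adjusted p = 3.01e-04). PSAT1 (ENSG00000135069.14, chr9:78297125-78330093), which makes phosphoserine by transamination, had spike-in scaled counts of 338, 166 and 300.1 in the controls of GM18505, GM19193 and GM19204 and of 50.6, 27.9 and 35.0 in their arsenite cultures. GM19193 was the lowest line in both conditions, and the groups did not overlap. The fitted changes of PSAT1 were -2.81 ± 0.42 by the spike-ins (adjusted p = 2.53e-10) and -0.97 ± 0.17 against all genes (adjusted p = 0.00230). MTHFD2 (ENSG00000065911.13, chr2:74186172-74217565), the mitochondrial folate dehydrogenase that is prominent in proliferating cells, had spike-in scaled counts of 836, 849.5 and 1026 in the controls of GM18505, GM19193 and GM19204 and of 149, 138 and 118 in their arsenite cultures. The arsenite values were within a narrow band and well under the controls. Its log2 fold change was -2.74 ± 0.38 by the spike-ins (adjusted p = 1.87e-11) and -0.92 ± 0.14 relative to all genes (adjusted p = 0.00104).

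**Figure D2:**
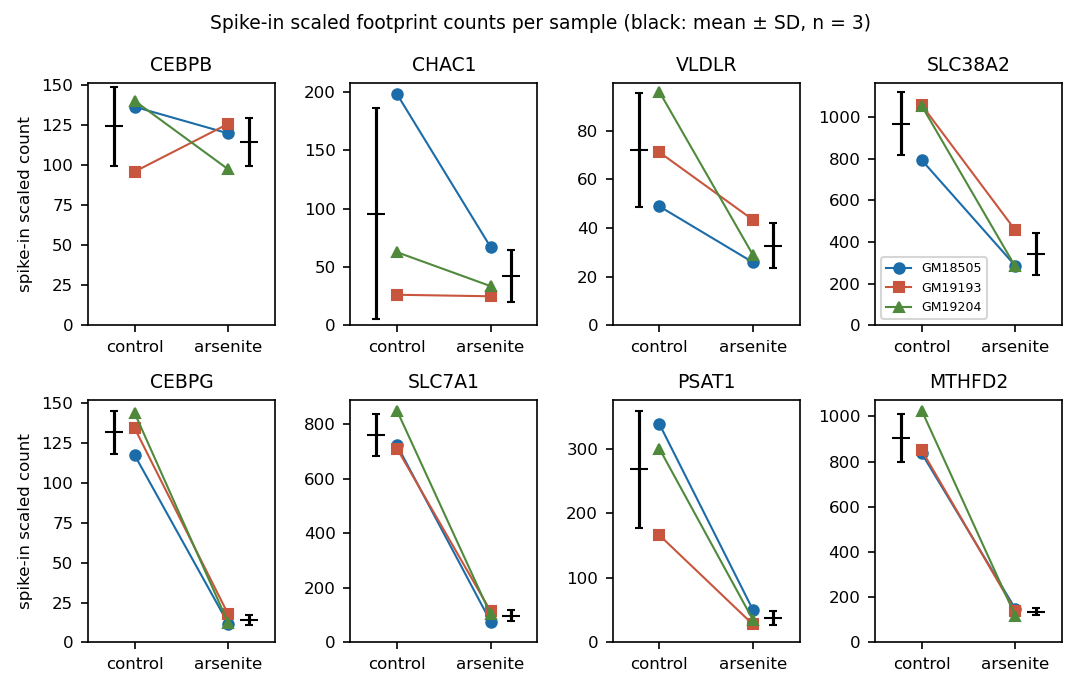
Spike-in scaled footprint counts (linear axis from 0) in the control and arsenite culture of each cell line, joined by lines, with the mean ± SD of n = 3 in black; the upper row holds the 4 genes that rose relative to all genes and the lower row the 4 with the largest relative falls. CEBPB stays between 96.1 and 140.3 in all 6 samples, while CEBPG drops to 11.8, 17.6 and 12.2.

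Relative to all genes, 4 of the 32 rose, namely CEBPB, CHAC1, VLDLR and SLC38A2, while 18 fell and 10 did not pass. Over all genes 27.8% rose and 26.6% fell on this scale. Where TMM was set by protein-coding genes averaging 50 or more counts, an alternative chosen after seeing the data, 8 of the 32 rose and 14 fell, and the median of all genes moved from 0.03 to 0.33. CEBPB (ENSG00000172216.6, chr20:50190830-50192668), the C/EBP beta transcription factor that partners ATF4, had spike-in scaled counts of 137, 96.1 and 140.3 in the controls of GM18505, GM19193 and GM19204 and of 120.0, 126 and 97.5 in their arsenite cultures. The control and arsenite values overlapped, with GM19193 higher and the other two lines lower under arsenite. On the spike-in scale its log2 fold change was -0.11 ± 0.39 (SE, adjusted p = 0.806), and relative to all genes it was 1.71 ± 0.15 (adjusted p = 8.75e-05). Its relative change was nearly the same in the 3 lines, at 1.71, 1.69 and 1.69, and it passed under all 13 alternatives of the relative test. An antisense gene overlaps CEBPB, and the strand setting of the counting is not given in the sources used here, so reads of the antisense gene could not be kept apart.

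CHAC1 (ENSG00000128965.13, chr15:40952962-40956512), the gamma-glutamylcyclotransferase that cleaves glutathione, had spike-in scaled counts of 198, 26.1 and 62.6 in the controls of GM18505, GM19193 and GM19204 and of 67.1, 24.8 and 33.5 in their arsenite cultures. GM18505 was the highest line in both conditions and GM19193 hardly moved, so the groups overlapped. Its log2 fold change was -0.91 ± 0.42 by the spike-ins (adjusted p = 0.0388) and 0.90 ± 0.27 relative to all genes (adjusted p = 0.0214). CHAC1 thus fell on one scale and rose on the other, and its fall on the spike-in scale passed under only 6 of 15 alternatives. Its relative rise did not pass with the U libraries alone, without GM19204, or without the cell line block. VLDLR (ENSG00000147852.17, chr9:2621182-2660056), a receptor for lipoproteins and reelin, had spike-in scaled counts of 48.9, 71.2 and 96.1 in the controls of GM18505, GM19193 and GM19204 and of 25.9, 43.4 and 29.0 in their arsenite cultures. All arsenite values were below all control values. The fitted changes of VLDLR were -1.13 ± 0.41 by the spike-ins (adjusted p = 0.00915) and 0.68 ± 0.25 against all genes (adjusted p = 0.0448). The relative rise of VLDLR passed under 7 of 13 alternatives and was lost whichever line was left out. SLC38A2 (ENSG00000134294.14, chr12:46358188-46372773), the system A carrier of small neutral amino acids, had spike-in scaled counts of 793, 1057 and 1054 in the controls of GM18505, GM19193 and GM19204 and of 286, 457 and 282 in their arsenite cultures. The groups did not overlap, and each arsenite value was below its control. Its log2 fold change was -1.53 ± 0.37 by the spike-ins (adjusted p = 5.67e-05) and 0.29 ± 0.10 relative to all genes (adjusted p = 0.0385). Its relative rise passed under 8 of 13 alternatives and was lost without GM18505 and without GM19204. So CHAC1, VLDLR and SLC38A2 fell on the spike-in scale and rose relative to all genes.

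Relative to all genes 11 of the 14 enzymes of serine, folate, proline and transamination fell (78.6%), none rose and 3 did not pass, beside falls in 26.6% of all genes and in 40.6% of protein-coding genes averaging 50 or more counts per sample. All 5 one-carbon folate enzymes fell, with a median log2 fold change of -0.89. SHMT2 fell by 0.91 ± 0.09 (adjusted p = 1.33e-04), and the trifunctional cytosolic enzyme MTHFD1 fell by 0.89 ± 0.10 (adjusted p = 3.05e-04). Its mitochondrial relative MTHFD1L, which releases formate, fell by 0.74 ± 0.15 (adjusted p = 0.00355), and cytosolic SHMT1 by 0.66 ± 0.19 (adjusted p = 0.0176). These 5 genes took a mean of 0.106% ± 0.00802 of all counts in the controls and 0.0527% ± 0.00980 under arsenite (SD, n = 3). Both proline enzymes fell, ALDH18A1, which reduces glutamate in the first step, by 0.57 ± 0.09 (adjusted p = 0.00120) and PYCR1, which closes the path, by 0.83 ± 0.16 (adjusted p = 0.00350). Among the transaminases GOT1, GOT2 and BCAT2 fell, with GOT2 at -0.76 ± 0.09 (adjusted p = 3.14e-04) and BCAT2 at -0.73 ± 0.13 (adjusted p = 0.00177), while BCAT1, the cytosolic branched-chain enzyme, was at -0.22 ± 0.20 (adjusted p = 0.381). Of the serine path only PSAT1 fell, with PHGDH at -0.15 ± 0.18 (adjusted p = 0.515) and PSPH at -0.24 ± 0.24 (adjusted p = 0.415). GOT1 is the least settled of these calls, since its fall passed under 3 of 13 alternatives, and that of SHMT1 passed under 7.

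The other roles held few relative calls. CTH, which makes cysteine from cystathionine, was at -0.01 ± 0.19 (adjusted p = 0.963). Of the regulators, TRIB3 was at -0.17 ± 0.23 (adjusted p = 0.563) and JDP2, a repressor of the AP-1 family, at 0.54 ± 0.29 (adjusted p = 0.144), from a mean of 43.5 counts per sample, the lowest of the 32. Within the C/EBP family CEBPB and CEBPG thus stood at the opposite ends of the 32 genes on both scales. DDIT4 was at 0.13 ± 0.09 and SESN2, a leucine-sensing restraint on mTORC1, at -0.33 ± 0.19, and neither passed (adjusted p = 0.258 and 0.165). The secreted glycoprotein gene STC2 was at 0.51 ± 0.28 (adjusted p = 0.153), with -0.0036, 0.17 and 1.09 in GM18505, GM19193 and GM19204. DDIT4 and SLC7A6 did pass as higher under the upper quartile scaling, which puts more genes above 0.

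Amino acid carriers were split. Relative to all genes 6 of the 8 fell (75.0%), 1 rose and 1 did not pass. On this scale 26.6% of all genes fell, and 40.6% of protein-coding genes averaging 50 or more counts per sample. After SLC7A1, the largest falls were those of SLC1A4, a carrier of serine and alanine, at -0.80 ± 0.10 (adjusted p = 4.16e-04), and of SLC7A5, the light chain of the large neutral amino acid exchanger, at -0.70 ± 0.12 (adjusted p = 0.00206). The glutamine carrier SLC1A5 fell by 0.66 ± 0.14 (adjusted p = 0.00455). Smaller falls were those of SLC38A1 at -0.35 ± 0.09 and SLC3A2 at -0.27 ± 0.09, which passed under 6 and 4 of 13 alternatives, and SLC3A2 changed sign under 2 of them. Coding genes averaging 200 to 1000 counts, as SLC38A1 and SLC3A2 do, had a median of -0.47, so both fell less than that median. SLC7A6, a carrier of cationic and large neutral amino acids, was at 0.28 ± 0.16 (adjusted p = 0.172), close to the rise of SLC38A2. On the spike-in scale all 8 fell, from -1.53 ± 0.37 for SLC38A2 to -2.97 ± 0.39 for SLC7A1, where 74.1% of all genes and 92.3% of these abundant coding genes fell.

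**Figure D3:**
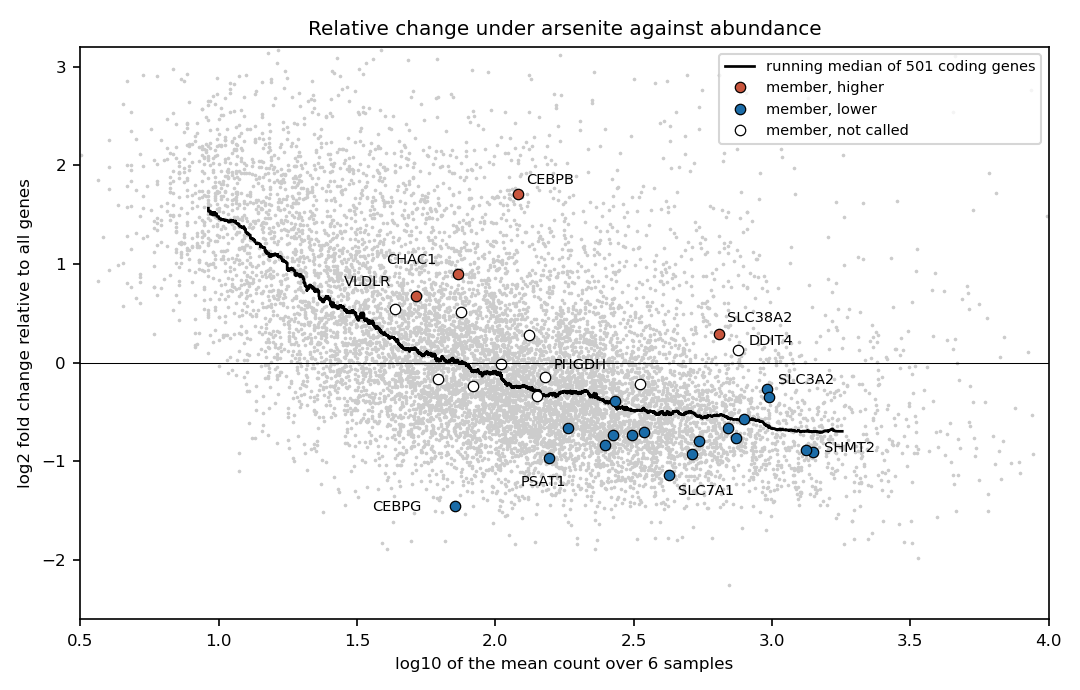
Log2 fold change relative to all genes against the log10 mean count over the 6 samples; grey dots are protein-coding genes, the black line their running median, and the larger points the 32 genes, coloured by call. The running median slopes down with abundance, most enzymes lie below it, the carriers lie on both sides of it, and CEBPB at 1.71 and CEBPG at -1.45 lie farthest from it.

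The relative values have to be read against abundance, because genes of this table with high counts fell more. The table holds only genes with 1 read or more in all 12 libraries, and the arsenite libraries were shallower. Genes with low counts that fell strongly can therefore be missing, and the part of this in the trend was not tested. The median relative log2 fold change of protein-coding genes was 0.79 below a mean count of 50, -0.16 from 50 to 200, -0.47 from 200 to 1000 and -0.70 from 1000 upwards. The 13 members with mean counts from 50 to 200 had a median of -0.15, the 16 from 200 to 1000 a median of -0.68, and SHMT2 and MTHFD1, the only members above 1000, stood at -0.91 and -0.89. Over all 32 the median was -0.37, beside -0.31 for protein-coding genes averaging 50 or more counts per sample. In these abundant coding genes 15.2% rose and 40.6% fell, and of the 32 genes 12.5% rose and 56.3% fell.

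A ratio of a pair of genes within a sample needs no scale, and 7 pairs of related enzymes or carriers were compared this way. The ratio of SLC38A2 to its relative SLC38A1 was higher under arsenite in all 3 lines, with changes of the log2 ratio of 0.82, 0.55 and 0.55 in GM18505, GM19193 and GM19204 and a mean of 0.64 ± 0.16 (SD, n = 3). For the mitochondrial aspartate enzyme GOT2 over cytosolic GOT1 the change was below 0 in all 3 lines, at -0.38, -0.45 and -0.31. It was also below 0 in all 3 lines for mitochondrial BCAT2 over cytosolic BCAT1, with a mean of -0.54 ± 0.44, and for the light chain SLC7A5 over its heavy chain SLC3A2, at -0.43 ± 0.29. For SHMT2 over SHMT1 (-0.24 ± 0.32), MTHFD2 over MTHFD1 (-0.03 ± 0.58) and MTHFD1L over MTHFD1 (0.14 ± 0.17) the lines differed in sign. With 3 lines the exact two-sided sign-flip test cannot go below p = 0.25, which the 4 pairs of constant sign reached (0.438 after adjustment over the 7 pairs). In the controls, footprints per coding length were 8.23 ± 3.71 times as dense on SHMT2 as on SHMT1 and 2.72 ± 0.498 times as dense on GOT2 as on GOT1. For MTHFD1L over MTHFD1 the same ratio of densities was 0.189 ± 0.0113 (SD, n = 3).

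The 3 lines also differed from one another in their levels of these genes. With both cultures of a line as its samples, 8 of the 32 differed between lines (edgeR F test, adjusted over all genes), or 25.0%, where 12.2% of all genes did. Of protein-coding genes averaging 50 or more counts per sample 14.8% did. Set by the spike-in scale the count was 3 of the 32, where 1200 of the 12357 genes passed. Levels are TMM-scaled CPM, the control culture first and the arsenite culture second. CHAC1 was at 36.5 and 46.4 in GM18505, 3.995 and 9.47 in GM19193, and 8.43 and 21.1 in GM19204 (adjusted p = 0.00256), so both GM18505 cultures were above the other 4. STC2 was at 22.9 and 22.8 in GM18505, 4.54 and 5.13 in GM19193, and 20.9 and 44.7 in GM19204 (adjusted p = 0.00538), with GM19193 lowest in both conditions. SLC1A5 was at 234 and 112 in GM18505, 83.0 and 65.9 in GM19193, and 231 and 153 in GM19204 (adjusted p = 0.00333), again lowest in GM19193.

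PSAT1 was at 62.3 and 35.0 in GM18505, 25.4 and 10.7 in GM19193, and 40.4 and 22.1 in GM19204 TMM-scaled CPM (adjusted p = 0.00862). Within each condition GM18505 was highest and GM19193 lowest. SHMT2, which uses the serine that this path makes, was at 339.8 and 174 in GM18505, 482 and 273 in GM19193, and 336 and 174 in GM19204 (adjusted p = 0.0110), so here GM19193 was the highest line in each condition. GOT2 was at 225 and 138 in GM18505, 152 and 88.0 in GM19193, and 219 and 126 in GM19204 (adjusted p = 0.0176), lowest in GM19193. DDIT4 was at 238 and 248 in GM18505, 159 and 167 in GM19193, and 146 and 174 in GM19204 (adjusted p = 0.0126), with both GM18505 cultures above the rest. BCAT1 was at 118 and 72.4 in GM18505, 108 and 84.4 in GM19193, and 34.3 and 47.6 in GM19204 (adjusted p = 0.0189), and both GM19204 cultures were below the other 4. CHAC1, STC2, SLC1A5, PSAT1 and GOT2, 5 of the 8, had their lowest mean in GM19193. With 1 culture per line and condition, a difference between lines cannot be told apart from one between cultures.

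**Figure D4:**
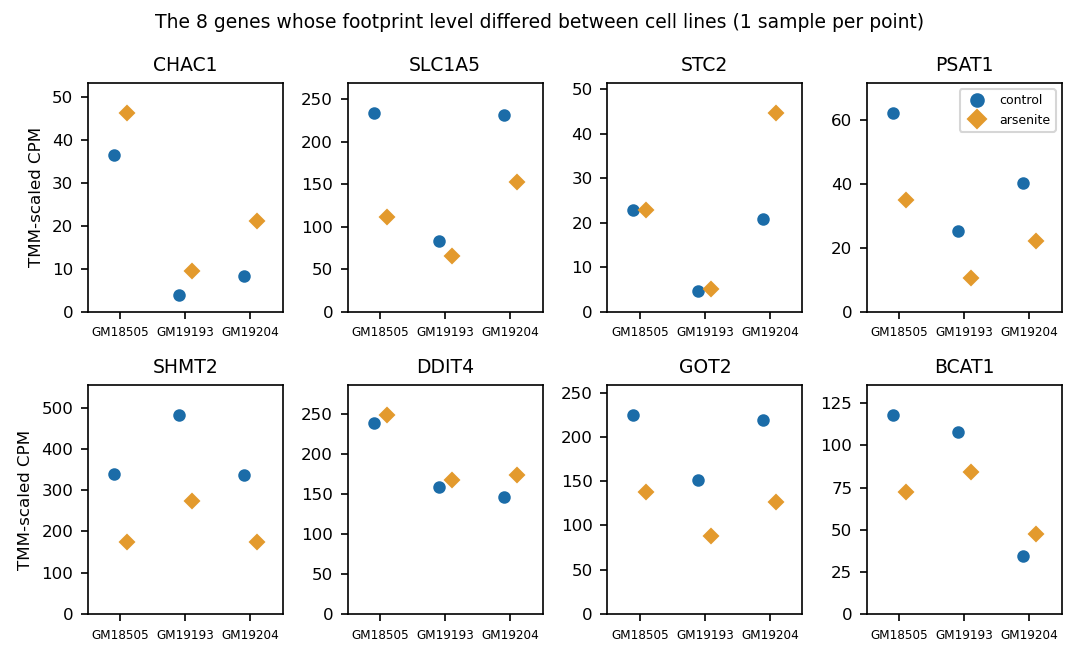
TMM-scaled CPM (linear axis from 0) of the 8 genes that differed between cell lines, with 1 control point and 1 arsenite point per line. CHAC1 is highest in GM18505, SHMT2 is highest in GM19193 within each condition, and BCAT1 is lowest in GM19204 at 34.3 and 47.6.

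The promoters were searched for the C/EBP-ATF response element through which ATF4 and its partners bind, spelled TGATGNAAN on either strand, in RefSeq windows from 250 bases before to 50 bases after each start site (GRCh38.p14). Of the 32 genes 28 had such a window, and 7 of these 28 held the motif (25.0%), against 166 of the 9317 windows of all genes in the table (1.78%). The stricter spelling TTGCATCA, or TGATGCAA on the other strand, a narrower form of the first, was in 4 of the 28 (14.3%) and in 0.537% of all windows. These 4 stretches are printed because they carry the full element upstream of the RefSeq start site; they run 5′ to 3′ along the gene's own strand, with the motif in capitals.
CHAC1: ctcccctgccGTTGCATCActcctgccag
BCAT1: gtcttcctgcTGATGCAATccgctaggtc
GOT1: aattgcattgGTTGCATCAttctcggcag
MTHFD1L: ccgccggctcTGATGCAATcgcgccgggc
The stretch of CHAC1 lies at chr15:40953251-40953279, plus strand, that of BCAT1 at chr12:24949131-24949159, minus strand, that of GOT1 at chr10:99430805-99430833, minus strand, and that of MTHFD1L at chr6:150866347-150866375, plus strand. The GENCODE spans of CHAC1 and MTHFD1L begin farther upstream than the RefSeq start, so by that annotation both stretches lie within the gene. In SLC38A1, SLC3A2 and SLC7A1 the motif lay across or after the start site. The 4 genes with the full element did not move alike, as CHAC1 rose relative to all genes at 0.90, GOT1 and MTHFD1L fell by 0.39 and 0.74, and BCAT1, at -0.22, did not pass. A match of letters describes the window and is not evidence of binding.

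Upstream start codons in the mRNA leader are the feature through which ATF4 itself escapes the block, so they were counted in the annotated leader of each gene's canonical transcript (GENCODE). An upstream ATG was present in 11 of the 32 genes (34.4%) and in 40.7% of 10864 protein-coding genes. Across all these coding genes the median relative log2 fold change was -0.29 without an upstream ATG and 0.22 with at least 1. Among the 32 the medians were -0.66 in the 21 genes without and -0.27 in the 11 with one. SLC38A1 had 7, PSPH had 6 and SLC7A6 had 4 upstream ATGs, and these 3 genes stood at -0.35, -0.24 and 0.28. CEBPB and CHAC1 had no ATG before the annotated start codon of this transcript, and CEBPG and SLC7A1 had 1 each. An ATG after that start codon, or in the leader of another transcript, was not counted. A count of 0 therefore does not show that a gene lacks a short regulatory reading frame. Genes with and without upstream ATGs also differ in leader length, with medians of 253 and 88 bases over all coding genes.

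Of 16 measured factors upstream of these genes, such as the eIF2 kinases, ATF4 and its partners, 2 rose and 11 fell (68.8%) on the spike-in scale. Of all genes 1.12% rose and 74.1% fell there, and 92.3% of protein-coding genes averaging 50 or more counts per sample fell. Relative to all genes 6 of the 16 rose and 6 fell (37.5% each), where 27.8% of all genes rose and 26.6% fell. In these abundant coding genes 15.2% rose and 40.6% fell on the relative scale. ATF4 had spike-in scaled counts of 409.9, 329.8 and 444 in the controls of GM18505, GM19193 and GM19204 and 633, 760.2 and 619 under arsenite, so each arsenite value was above all control values. It rose on the spike-in scale by 0.77 ± 0.36 (adjusted p = 0.0438) and relative to all genes by 2.59 ± 0.10 (adjusted p = 1.49e-05). PPP1R15A, the stress-induced subunit that directs a phosphatase to eIF2, was at 274, 396 and 524 in the controls and 581, 1121 and 856 under arsenite, and rose by 1.10 ± 0.36 on the spike-in scale (adjusted p = 0.00375). The rise of ATF4 on that scale passed under 10 of 15 alternatives and that of PPP1R15A under 13. ATF5, a relative of ATF4 with the same kind of leader, was on the spike-in scale at -0.03 ± 0.37 (adjusted p = 0.947) and rose by 1.79 ± 0.10 relative to all genes (adjusted p = 3.23e-05). Reads were counted per gene, so those in the leaders of ATF4, ATF5 and PPP1R15A could not be kept apart from those on the coding sequence. EIF2S1, the eIF2 alpha subunit, fell on both scales, by 0.87 ± 0.10 on the relative one. The relative rise of CEBPB, at 1.71, was the only one among the 32 genes of the size of that of ATF5.

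Other genes of the same pathways, from lists wider than the 32, were read the same way, with 27.8% of all genes higher and 26.6% lower. Of 25 further reported ATF4 targets, 3 rose and 11 fell relative to all genes, with a median of -0.35. The 3 that rose were GDF15, a secreted stress cytokine, at 1.46 ± 0.29, DDR2 at 1.46 ± 0.44 and KLHL24 at 0.90 ± 0.33. They averaged 46.8, 30.2 and 29.5 counts, and coding genes below 50 counts had a median of 0.79. On the spike-in scale none of the 3 rose, with GDF15 at -0.29, DDR2 at -0.28 and KLHL24 at -0.92. The falls with the smallest p were those of the tRNA synthetases GARS1 at -1.03 ± 0.10, EPRS1 at -0.72 ± 0.08 and MARS1 at -0.74 ± 0.09. Of 23 other amino acid carriers 2 rose and 6 fell (26.1%, close to the 26.6% of all genes, median 0.09), among them SFXN1, the mitochondrial serine carrier, at -1.10 ± 0.10. Of 39 other amino acid and folate enzymes 5 rose and 24 fell (median -0.56). SRM, which makes spermidine, fell by 1.80 ± 0.16, and ATIC, which uses formyl-folate in purine synthesis, by 1.32 ± 0.10. The relative rise of the folate dehydrogenase ALDH1L1, at 1.18 ± 0.19 (adjusted p = 0.00124), went against the relative fall of the 5 one-carbon enzymes. On the spike-in scale ALDH1L1 did not rise, at -0.62 ± 0.39 (adjusted p = 0.139), with -1.10, -0.21 and -0.59 in GM18505, GM19193 and GM19204.

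**Figure D5:**
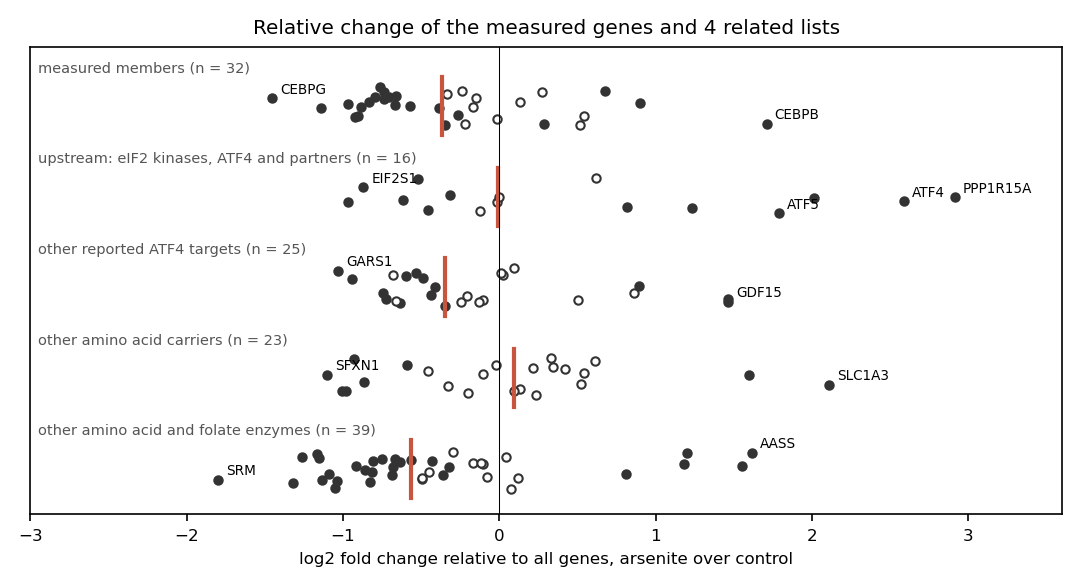
Log2 fold change relative to all genes for the 32 genes and for 4 wider lists, 1 point per gene (height within a band has no meaning), filled where the adjusted p is under 0.05, with a red bar at each list's median. The medians are -0.37 for the 32 genes and -0.56 for the other enzymes, while ATF4 and PPP1R15A stand at the far right at 2.59 and 2.91.

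Some counts may be shared with other genes. In 14 of the 32 genes an exon overlapped an exon of another annotated gene, mostly on the opposite strand. Pseudogenes named after the gene are annotated for 7 of the 32, among them MTHFD2, GOT2 and PSAT1. The authors kept uniquely mapped reads, so reads that fit such a copy equally well were dropped, and the levels of these genes are uncertain to that extent.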

How the data were processed

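Ribosome footprints were sequenced from 12 libraries of 3 lymphoblastoid lines, with and without 30 min of sodium arsenite at 134 µM. The authors trimmed adapters, poly(A) and 4 bases at the 5′ end, discarded rRNA, tRNA and snoRNA reads, mapped the rest to GRCh38 with TopHat2 (GENCODE 37, at most 2 mismatches, unique hits), counted reads per gene with featureCounts and deposited raw counts, keeping each gene that had 1 read or more in all 12 libraries. Raw counts of 16 spike-in oligomers were deposited beside them. The sources used here do not give versions of the mapping and counting tools or the strand setting. The authors dosed the oligomer pools by the amount of digested RNA.

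T and U counts were summed per culture. All 12357 genes were fitted with edgeR 4.0.16 (R 4.3.3, quasi-likelihood, cell line as block, two-sided, Benjamini-Hochberg, threshold 0.05). For the spike-in scale, 7 oligomers that reached 10 reads in all libraries were used, and their log2 counts were averaged after subtracting the log2 of the amount added. These amounts, and the pool of each library, were read from the study's design diagram, which leaves them uncertain, and their rank correlation with the oligomer counts was 0.81 to 0.92 per library. Fold changes per line used a pseudocount of 0.25. The relative scale used TMM. Alternatives used limma 3.58.1, RUVg (k = 3) and DESeq2 1.42.0. Cultures of the same line deviated together (r = 0.64 to 0.70 over 8265 genes), and the pairing comes from the line itself. On simulated counts, 68.0% and 82.0% of genes changed by -1 and 1 (log2) were recovered on the relative scale, with 0.173% of unchanged genes called. The simulation changed 50 genes at each size, up and down alike, all averaging 50 or more counts, with no differences between lines. It therefore does not measure false calls where many genes move, as they did here.

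The members and lists were chosen with earlier results of these data known. Values in every sample are given for members higher on either scale, the 4 largest relative falls and up to 8 members that differ between lines; from each wider list, up to 3 genes with the smallest relative p in each direction, with ATF4, ATF5, PPP1R15A and EIF2S1 always given. Positions, coding lengths and leaders are from GENCODE 44 and promoters from RefSeq. The counts include PCR duplicates, so depth sets counting error only.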

Additional observations from a re-analysis of the deposited data

Results flagged for a closer look

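CEBPB was the one gene whose log2 fold change on the spike-in scale had opposite signs in different lines. Its log2 fold change was 0.39 in GM19193, with both libraries of that line above 0, and -0.19 in GM18505 and -0.52 in GM19204, with both libraries of each below 0. By library, T before U, it was 0.74 and 0.24 in GM19193, -0.37 and -0.02 in GM18505, and -0.90 and -0.14 in GM19204. The U value of GM18505 is thus close to no change, and the scale had a standard error between 0.07 and 0.16 per sample. The difference between the lines was not tested, since each has 1 culture per condition. The control and arsenite cultures of a line also received different oligomer pools. In GM19193 the median of all genes also fell least, at -1.29 against -1.88 and -2.22, and relative to all genes the change of CEBPB was 1.71, 1.69 and 1.69 in GM18505, GM19193 and GM19204. No other gene of the 32 was above 0 in both libraries of any line while below 0 in both of another.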

How the results depend on the processing

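On the spike-in scale, 31 of the 32 genes fell. Under 14 of 15 alternatives between 24 and 31 fell and none rose. With the total spike-in count as the scale 0 fell and 0 of the 12357 genes passed, also at an unadjusted p under 0.05, while the median of the 32 went from -2.19 to -2.66. Relative to all genes, 4 rose and 18 fell. The number that rose was 2 with DESeq2, 1 with the U libraries alone, 1 without the replicate block (13 fell), and 8 with TMM set by abundant coding genes (14 fell), which was added after seeing the data. Leaving out a line gave 1 to 3 that rose and 14 to 18 that fell. The median of the 32 moved from -0.37 to -0.20 with upper quartile factors, to -0.12 over genes averaging 50 or more counts (31 of the 32, without JDP2), and to -0.067 with abundant coding genes setting TMM. SLC3A2 changed sign under the last 2, at 0.0033 and 0.035. Among all genes the split of higher and lower calls went from 3433 and 3290 to 4023 and 2475 with upper quartile factors and to 4649 and 1856 with abundant coding genes, and without the replicate block it was 2392 and 2186. Of the 22 relative calls 13 passed under all 13 alternatives. The number that differed between lines was 8 and fell to 3 on the spike-in scale, where 1200 genes passed in place of 1505. The cause of these changes was not tested. Raw counts of 10 to 46 per arsenite sample in CEBPG, PSAT1 and VLDLR limit the precision of their changes.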
